A study of Bos taurus with 16 samples.

Results

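The genes described here encode the 5 subunits of eukaryotic translation initiation factor 3 (eIF3) that lie outside its PCI/MPN octamer: EIF3B (ENSBTAG00000007474), EIF3D (ENSBTAG00000001988), EIF3G (ENSBTAG00000002734), EIF3I (ENSBTAG00000014388) and EIF3J (ENSBTAG00000000359). The rule that selects them names their place in the complex and uses no measured value. They are 5 of the 27607 gene IDs in the table of counts. Of the octamer itself, 7 subunits (EIF3A, EIF3E, EIF3F, EIF3H, EIF3K, EIF3L and EIF3M) served as the reference for subunit ratios. These 7 are not the whole octamer, and the octamer mean below is the mean of these 7.

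eIF3 is the largest of the initiation factors. It binds the small ribosomal subunit, helps to bring the initiator tRNA and the mRNA to it, and takes part in scanning for the start codon. EIF3B is a scaffold that holds EIF3G and EIF3I, EIF3I is a propeller-shaped WD-repeat protein, and EIF3G carries an RNA recognition motif. EIF3D can bind the mRNA cap on certain transcripts, and EIF3J is a loosely held subunit that acts near the decoding site of the small ribosomal subunit.

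Messenger RNA was sequenced from the liver (right lobe) and the semitendinosus muscle of 8 Holstein bull calves, 16 libraries in all, to ask how embryo origin affects both organs. In the 4 IVP calves (3208, 3209, 5833 and 5841) the embryo had been produced in vitro. In the 4 MOET calves (3213, 3217, 3218 and 5932) it had been produced in vivo, by superovulation, artificial insemination and flushing of the donor. All embryos were transferred fresh to synchronised recipients, and the calves were raised in similar conditions. Calf 3213 was 144 days old at sampling and the other 7 calves were 98 to 104 days old. All IVP calves and MOET calves 3217 and 3218 had the same dam, and calves 3208, 3209, 3217 and 3218 also had the same sire, so that origin and parentage were partly joined.

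The libraries held 22758137 to 25626474 counts in all, and the 5 genes had 652 to 3961 counts each. For plain read counts of that size, counting error alone is 3.92% to 1.59% of the value. In the deposited counts MOET calf 3213 lay at the mean of the other MOET calves, with a median absolute log2 deviation over genes of 0.0219 in liver and 0.0137 in muscle, below its counting noise of 0.0439 and 0.0478. It was not counted as a separate replicate, and means ± SD are over 4 IVP and 3 MOET calves. The liver library of IVP calf 5841 had the largest deviation from its group, 0.380, and the highest value of all 8 liver libraries for 5 of 5 subunits, so the main liver values are given with and without it. Levels are in CPM, the counts of a gene brought to a common library size by the TMM method over the 16 libraries. They are not corrected for transcript length, so levels of different genes are not compared. In tissue RNA, fewer cells of a type and less RNA per cell cannot be told apart.

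In liver, all 5 subunits had higher mean mRNA levels in IVP than in MOET calves, and none of the differences passed the adjusted threshold in the model with age. The differences were largest for EIF3J and EIF3G and smaller for EIF3B, EIF3D and EIF3I. In each of the 5 genes every IVP calf lay above every MOET calf, a pattern that 17.2% of all 14290 genes tested showed in this direction and 33.1% showed in either direction.

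EIF3G stood at 70.1, 87.8, 88.5 and 146 CPM in the livers of IVP calves 3208, 3209, 5833 and 5841, and at 55.8, 60.1 and 52.7 CPM in those of MOET calves 3217, 3218 and 5932, with 55.2 CPM in calf 3213. The groups did not overlap, and calf 5841 was far above the other IVP calves. The means were 98.0 ± 32.9 CPM (SD, n = 4) and 56.2 ± 3.69 CPM (SD, n = 3), a ratio of 1.74, or 1.46 without calf 5841. The exact two-sided permutation test gave p = 0.0571, the smallest that 4 against 3 calves allow, so this test could not reach 0.05. In edgeR's quasi-likelihood test with age as a covariate the log2 difference was 0.76 (SE 0.24, 95% interval 0.22 to 1.29, adjusted p = 0.126). Without calf 5841 it was 0.54 with an adjusted p of 0.0375 in the same edgeR test.

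EIF3J had the widest spread relative to its mean among the IVP livers, a coefficient of variation of 53.5% against 33.6% for EIF3G. It stood at 31.8, 33.0, 36.3 and 82.8 CPM in IVP calves 3208, 3209, 5833 and 5841 and at 22.1, 26.3 and 19.5 CPM in MOET calves 3217, 3218 and 5932, with 21.2 CPM in calf 3213. The groups did not overlap, but calf 5841 alone stood at more than the sum of any pair of the other IVP calves. The means were 46.0 ± 24.6 CPM (SD, n = 4) and 22.7 ± 3.46 CPM (SD, n = 3), a ratio of 2.03 that was 1.49 without calf 5841. The edgeR log2 difference was 0.95 (SE 0.35, 95% interval 0.16 to 1.73, adjusted p = 0.134), and 0.56 with an adjusted p of 0.0372 without calf 5841.

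The scaffold subunit EIF3B stood at 62.1, 71.5, 64.2 and 96.0 CPM in IVP calves 3208, 3209, 5833 and 5841 and at 55.1, 56.2 and 53.9 CPM in MOET calves 3217, 3218 and 5932. The MOET calves lay within a narrow band, and the lowest IVP calf was above it. Its edgeR log2 difference was 0.38 (SE 0.17, adjusted p = 0.162), and 0.25 (adjusted p = 0.11) without calf 5841.

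EIF3I, the propeller subunit, stood at 64.8, 80.7, 75.3 and 105 CPM in the same IVP calves and at 63.2, 60.5 and 58.9 CPM in the same MOET calves. IVP calf 3208 was only just above MOET calf 3217. Its edgeR log2 difference was 0.39 (SE 0.17, adjusted p = 0.162), and 0.26 (adjusted p = 0.130) without calf 5841.

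EIF3D, the subunit that can bind the cap, stood at 59.9, 73.6, 64.4 and 99.1 CPM in those 4 IVP livers and at 53.8, 49.0 and 58.0 CPM in those 3 MOET livers, again with IVP calf 3208 close to the highest MOET calf, 5932. Its edgeR log2 difference was 0.44 (SE 0.19, adjusted p = 0.157), and 0.29 (adjusted p = 0.116) without calf 5841.

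**Figure D1:**
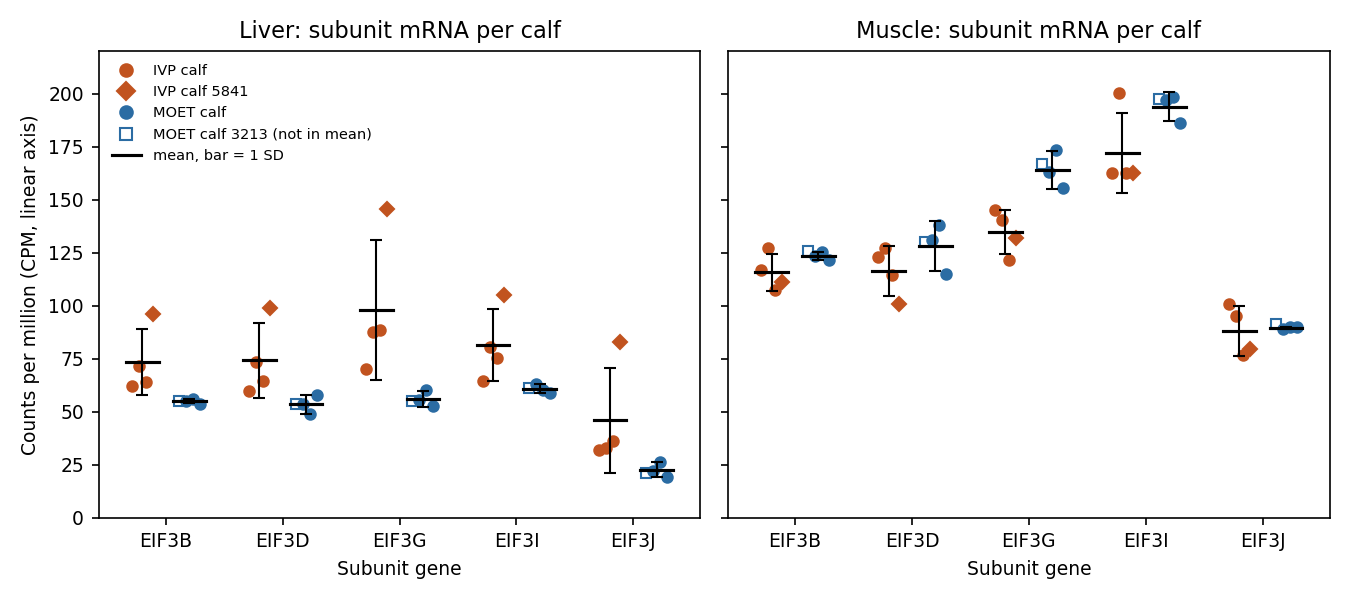
mRNA level of the 5 subunits in CPM (vertical linear axis from 0) for each calf in liver (left) and muscle (right). Circles are calves, the diamond is IVP calf 5841, the open square is MOET calf 3213, which is not in the mean, and lines with bars are means ± SD of 4 IVP and 3 MOET calves. In liver every IVP calf lies above every MOET calf for each gene, and in muscle the groups are apart for EIF3G alone, with IVP lower.

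With an adjusted p under 0.05 as the threshold, 0 of the 5 subunits were called in liver, where 0.0350% of all genes were called (5 of 14290). At an unadjusted p under 0.05 it was 5 of 5, where the share among all genes was 29.8%. The median log2 difference of the 5 subunits was 0.44, that of all genes was -0.004, and the subunits lay between the 80.1 percentile (EIF3B) and the 97.3 percentile (EIF3J) of all genes. Without calf 5841 the median of the 5 was 0.29, and 2 of 5 (EIF3G and EIF3J) were called, where 8.41% of all genes were. The call varied with the model. In edgeR without the age term, where calf 3213 counts as a replicate, EIF3G (adjusted p = 0.0377) and EIF3J (adjusted p = 0.0432) passed, as did 21.0% of all genes. Without both calf 3213 and the age term 0 of 5 passed (EIF3G 0.104 and EIF3J 0.107, adjusted p in edgeR), as did 0.0347% of all genes. Without calf 3213 and with the age term kept, EIF3G (0.0266) and EIF3J (0.0244) passed, as did 15.2%. In that fit calf 5841 was 98 days old and all others 102 to 104 days, so age and calf 5841 could hardly be told apart. DESeq2 called EIF3G alone with the age term, where it called 11.0% of all genes, and all 5 subunits without the age term, where it called 32.6%. Among the calves of the same dam and sire, 2 against 2, the log2 differences were 0.25 for EIF3B, 0.37 for EIF3D, 0.44 for EIF3G, 0.22 for EIF3I and 0.41 for EIF3J, all with IVP higher and none past the threshold.

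Markers of cell types also differed between the liver groups. Of the markers listed for each type, 3 of 8 for liver parenchyma could be named (APOA1, APOA2 and TTR), and their summed level was 9173 to 14116 CPM in IVP and 5566 to 7106 CPM in MOET livers, highest in calf 5841. Collagens and decorin of fibroblasts (4 of 5 markers named) summed to 396 to 523 CPM in IVP and 626 to 660 CPM in MOET livers, and CDH5 and VWF of endothelium (2 of 4 named) to 61.1 to 75.4 CPM and 78.6 to 98.6 CPM. CD74, the 1 leukocyte marker of 5 that could be named, stood at 465 to 822 CPM and 390 to 458 CPM, with its highest level in calf 5841. Muscle markers (5 of 9 named) summed to at most 0.741 CPM in any liver library, and liver markers to at most 46.8 CPM in any muscle library. No listed marker of adipocytes, bile duct or blood could be named. The marker names come from the study's own tables, which partly list genes selected on these libraries. That the named markers differ between the groups is therefore no independent evidence. The part of these shifts in the differences of the eIF3 subunits was not tested.

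In muscle the subunits showed smaller differences, and 4 of 5 had lower mean levels in IVP calves in the fitted model. EIF3G had the largest difference and was the only subunit whose groups did not overlap. None passed the adjusted threshold.

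EIF3G stood at 145, 140.4, 122 and 132 CPM in the muscle of IVP calves 3208, 3209, 5833 and 5841 and at 163, 173 and 156 CPM in that of MOET calves 3217, 3218 and 5932, with 167 CPM in calf 3213. Every IVP calf lay below every MOET calf, as in 9.57% of all genes in this direction and 19.2% in either direction. The means were 134.8 ± 10.4 CPM (SD, n = 4) and 164.1 ± 8.82 CPM (SD, n = 3), a ratio of 0.822, and the exact two-sided permutation test gave p = 0.0571, again the smallest possible. The edgeR log2 difference was -0.26 (SE 0.10, 95% interval -0.49 to -0.04, unadjusted p = 0.0262, adjusted p = 0.194). Its adjusted p was under 0.05 in 1 of 16 alternative settings, DESeq2 without the age term (0.00622), where 12.6% of all genes were called and calf 3213 counts as a replicate. It was 0.137 in DESeq2 with age and 0.0568 in edgeR without age.

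EIF3I stood at 162.6, 200.3, 162.7 and 162.6 CPM in IVP calves 3208, 3209, 5833 and 5841 and at 197, 199 and 186.0 CPM in MOET calves 3217, 3218 and 5932. IVP calf 3209 was above all MOET calves while the other 3 IVP calves lay together below them. The edgeR log2 difference was -0.15 (SE 0.11, adjusted p = 0.477).

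EIF3B ranged from 107 to 127 CPM in IVP and from 122 to 125 CPM in MOET muscle, with a log2 difference of -0.07 (adjusted p = 0.718 in edgeR). EIF3D ranged from 101 to 127 CPM in IVP and from 115.2 to 138 CPM in MOET muscle, with a log2 difference of -0.11 (adjusted p = 0.610 in edgeR). For both genes the groups overlapped.

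EIF3J, which had the largest fitted difference of the 5 in liver, stood at 101, 95.2, 76.7 and 79.8 CPM in the muscle of IVP calves 3208, 3209, 5833 and 5841 and at 88.9, 89.8 and 89.9 CPM in that of MOET calves 3217, 3218 and 5932. The MOET calves lay between a higher and a lower pair of IVP calves, which are also pairs of the same sire. The edgeR log2 difference was 0.002 with a 95% interval of -0.25 to 0.25 (adjusted p = 0.993).

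In all, 0 of 5 subunits were called in muscle, where 0.467% of all genes were called (60 of 12854), and 1 of 5 had an unadjusted p under 0.05, where the share among all genes was 19.8%. The median log2 difference of the 5 subunits was -0.11 and that of all genes 0.02. Among the calves of the same dam and sire, 2 against 2, the log2 differences in muscle were -0.01 for EIF3B, -0.09 for EIF3D, -0.22 for EIF3G, -0.11 for EIF3I and 0.15 for EIF3J, and none passed the threshold. Fibroblast markers summed to 1025 to 1468 CPM in IVP and 1651 to 2039 CPM in MOET muscle, and endothelium markers to 108 to 172 CPM and 90.1 to 101 CPM. Liver markers summed to 3.95 to 46.8 CPM in IVP and 1.22 to 3.20 CPM in MOET muscle, CD74 stood at 273 to 547 CPM and 254 to 280 CPM, and muscle markers summed to 141754 to 192582 CPM and 168747 to 194596 CPM. These are the same named markers as in liver, with the same limit from how the names were found. The part of these values in the difference of EIF3G was not tested.

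**Figure D2:**
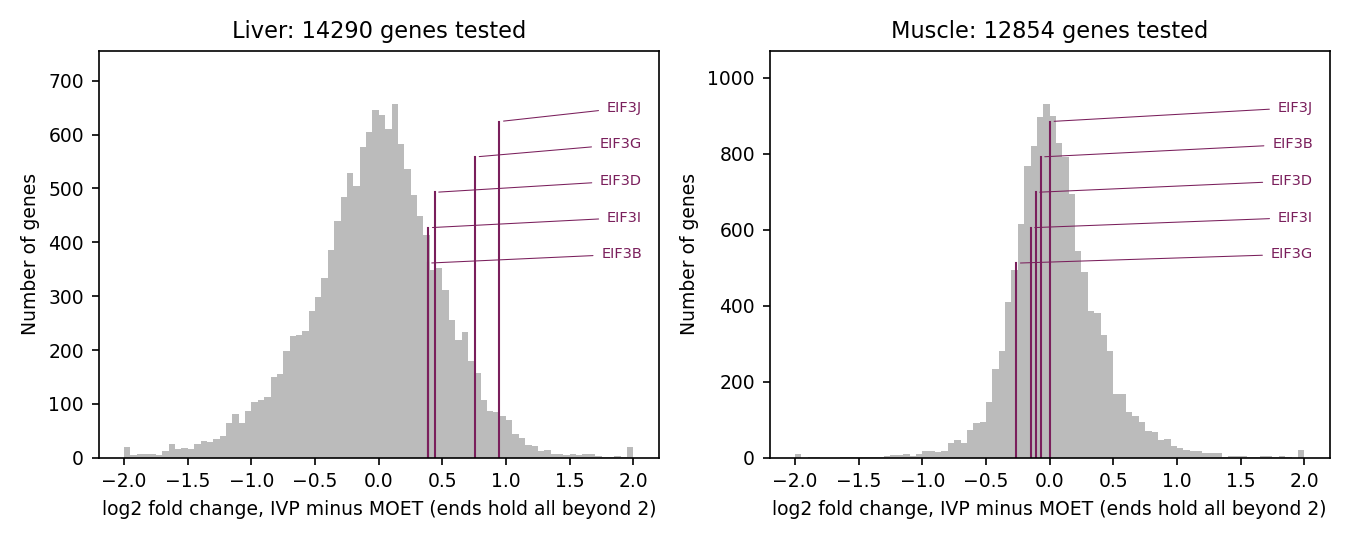
Number of genes (vertical axis) by log2 difference between IVP and MOET calves (horizontal axis, edgeR with age) over the 14290 genes tested in liver and the 12854 tested in muscle, with a line at each subunit. In liver the 5 subunits lie to the right of the centre, up to 0.95 for EIF3J, and in muscle they lie between -0.26 and 0.002.

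Whether embryo origin acted alike in both organs was asked with the interaction of origin and organ over the 16 libraries. The origin effect was lower in muscle than in liver for all 5 subunits, and in the model with 1 age term 5 of 5 passed the threshold, where 23.1% of all 15237 genes did. The difference was largest for EIF3G, at -1.10 (SE 0.23, 95% interval -1.60 to -0.60, adjusted p = 0.00847 in edgeR). For EIF3J it was -1.07 (SE 0.34, 95% interval -1.79 to -0.36, adjusted p = 0.0323 in edgeR). For EIF3D, EIF3I and EIF3B it was -0.61, -0.60 and -0.51, with edgeR adjusted p-values of 0.0368, 0.0285 and 0.0404. Without calf 5841 these were -0.37, -0.42 and -0.33, with edgeR adjusted p-values of 0.0827, 0.0585 and 0.0651.

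EIF3G was the subunit for which this call held most widely. Each calf gave both libraries, and when calf was added as a blocking factor EIF3G (adjusted p = 0.0132 in edgeR) and EIF3I (adjusted p = 0.0366) passed, while EIF3J (0.0508), EIF3B (0.0550) and EIF3D (0.0734) did not, where 22.9% of all genes passed. That fit counts calf 3213 as a replicate. With the block and without calf 3213, EIF3G alone passed (adjusted p = 0.0430 in edgeR, EIF3I 0.104), where 1151 of 15377 genes passed. Without calf 3213 and the age term EIF3G alone passed (adjusted p = 0.0282 in edgeR), and the other 4 lay between 0.0702 and 0.0926, where 12.2% of all genes passed. Without calf 5841 EIF3G (-0.82, adjusted p = 0.00443 in edgeR) and EIF3J (-0.58, adjusted p = 0.0223) passed, where 18.4% of all genes passed. Calf 3213 counts as a replicate there too. Without calves 3213 and 5841 and the age term, EIF3G alone passed (adjusted p = 0.0170 in edgeR, EIF3J 0.0684), where 1547 of 15286 genes passed. EIF3G had an adjusted p under 0.05 in 18 of 19 alternative settings, EIF3I in 9, EIF3J in 8, EIF3D in 7 and EIF3B in 6, and the sign was negative in every one of them for all 5 genes. The exception for EIF3G was the block with an age term for each organ (adjusted p = 0.0505 in edgeR). Over the 19 settings 713 to 4566 genes were called among all genes tested, the fewest in that exception.

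**Figure D3:**
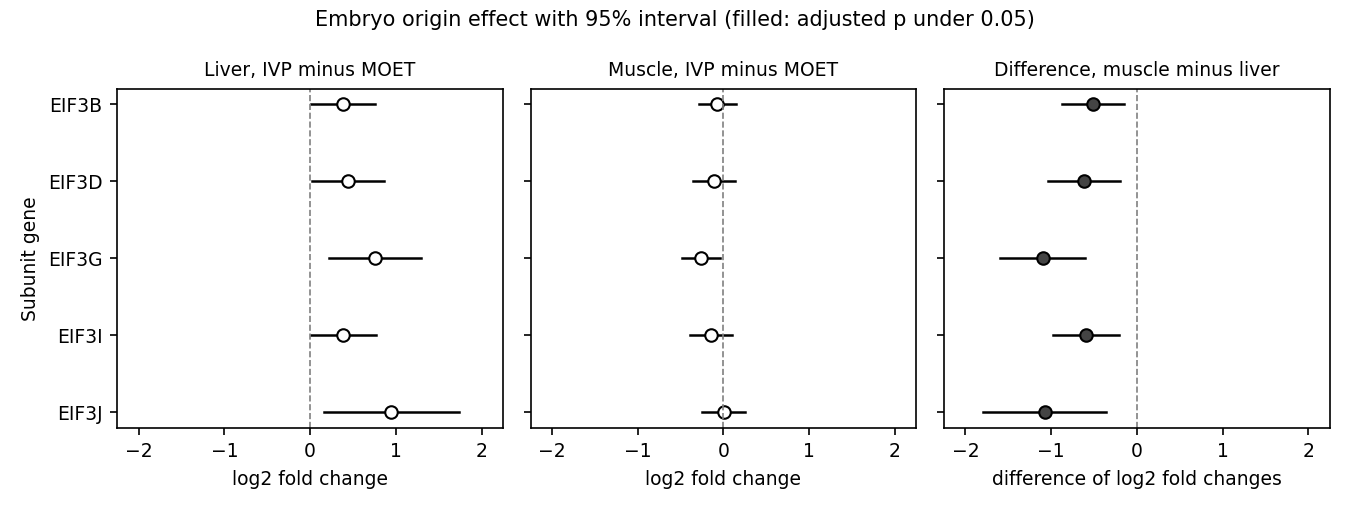
Log2 difference between IVP and MOET calves in liver (left) and in muscle (middle), and the muscle difference minus the liver difference (right), for each subunit, from edgeR with age; points are estimates, lines are 95% intervals and filled points have an adjusted p under 0.05. The liver estimates lie above 0, the muscle estimates near or below 0, and the 5 differences between organs from -1.10 to -0.51.

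All 5 subunits had more mRNA in muscle than in liver. The log2 difference, averaged over both origins, was 0.91 for EIF3B, 0.96 for EIF3D, 1.01 for EIF3G, 1.38 for EIF3I and 1.48 for EIF3J, with edgeR adjusted p-values from 3.29e-10 (EIF3I) to 4.92e-07 (EIF3G). All 5 were called, as were 84.5% of all genes, whose median log2 difference was -0.09, and the subunits lay between the 74.4 and the 82.6 percentile of all genes. The call of all 5 held in each of the 19 alternative settings.

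Within calves, EIF3B, EIF3D and EIF3I were higher in muscle than in liver in 8 of 8 calves and EIF3G and EIF3J in 7 of 8. The exception was calf 5841, with log2 differences between its organs of -0.14 for EIF3G and -0.05 for EIF3J. For EIF3G the difference between organs was 1.05, 0.68, 0.46 and -0.14 in IVP calves 3208, 3209, 5833 and 5841, and 1.55, 1.53 and 1.56 in MOET calves 3217, 3218 and 5932. The 3 MOET calves were nearly alike, and each was above every IVP calf. In 4 of the 5 subunits, all except EIF3D, the 4 IVP calves lay below the 3 MOET calves in this difference. Groups without overlap, in either direction, were seen in 30.9% of all genes. Over the 7 calves without calf 3213, the levels of EIF3B, EIF3D and EIF3I did not overlap between the organs, with muscle higher as in 27.7% of all genes.

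**Figure D4:**
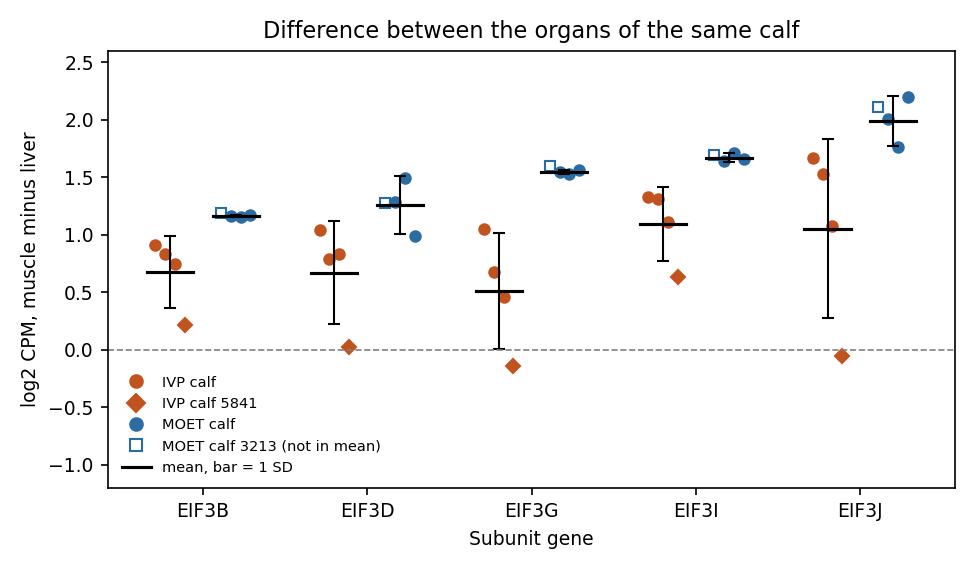
Log2 CPM in muscle minus log2 CPM in liver of the same calf (vertical axis) for each subunit, with the marks of each calf as in the plot of CPM per calf. The MOET calves lie between 0.99 and 2.20, and the IVP calves lie lower on average and spread more, down to -0.14 for EIF3G in calf 5841.

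Ratios between subunits do not change with a scaling of whole libraries. For each calf and organ 15 log2 ratios were taken, 10 between the 5 subunits and 5 of a subunit to the mean of the 7 octamer subunits. Between IVP and MOET calves 6 of the 30 ratios had groups without overlap, 3 in each organ, and each of the 6 held EIF3G. Among all pairs of genes 30.7% did so in liver and 18.4% in muscle, and among ratios of a gene to the octamer mean 40.7% in liver and 17.9% in muscle, so the count was near or under the shares among all genes. Of the ratios of EIF3G to each other gene tested, 63.2% were without overlap in liver and 33.4% in muscle. In liver this share was higher for EIF3J, at 66.5%, and lower for EIF3B (41.6%), EIF3D (37.5%) and EIF3I (36.3%). In muscle the other subunits had lower shares than EIF3G, from 13.4% (EIF3J) to 17.4% (EIF3B).

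In liver the log2 ratio of EIF3G to the octamer mean was 0.12, 0.21, 0.24 and 0.46 in IVP calves 3208, 3209, 5833 and 5841 and -0.10, 0.02 and -0.14 in MOET calves 3217, 3218 and 5932. The 2 groups did not overlap and IVP was higher, with a difference of means of 0.33, or 0.26 without calf 5841. The octamer mean joins subunits with fitted liver differences from 0.05 to 0.73, some of them close to the 0.76 of EIF3G. In muscle the same ratio was -0.03, 0.004, -0.003 and 0.05 in IVP calves 3208, 3209, 5833 and 5841 and 0.14, 0.07 and 0.19 in MOET calves 3217, 3218 and 5932. There the highest IVP calf lay below the lowest MOET calf, with a difference of -0.13. Each exact two-sided permutation test gave p = 0.0571, the smallest possible, and 0.286 after Benjamini-Hochberg adjustment over the 30 ratios.

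Set against its scaffold EIF3B, EIF3G showed the same pattern. The log2 ratio of EIF3B to EIF3G was lower in IVP than in MOET livers, with a difference of means of -0.36, or -0.28 without calf 5841 (-0.38 ± 0.19, SD, n = 4, against -0.03 ± 0.06, SD, n = 3) and higher in IVP than in MOET muscle by 0.19 (-0.22 ± 0.07 against -0.41 ± 0.06). The other ratios without overlap were EIF3G to EIF3I in liver, higher in IVP calves by 0.35 (0.27 without calf 5841), and EIF3G to EIF3J in muscle, with a difference of -0.25.

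The ratios of EIF3B, EIF3D and EIF3I to the octamer mean overlapped between the groups in both organs, with differences of means from -0.03 to 0.03 in liver and from -0.02 to 0.06 in muscle. EIF3J to the octamer mean differed by 0.49 in liver, or 0.30 without calf 5841, and by 0.13 in muscle, and its groups overlapped. The liver ratio in IVP calves spread over an SD of 0.37.

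Taken within calves, the log2 ratio of EIF3G to the octamer mean was lower in muscle than in liver in 4 of 4 IVP calves (-0.25 ± 0.11, SD, n = 4) and higher in 3 of 3 MOET calves (0.20 ± 0.15, SD, n = 3). The groups did not overlap, as in 34.5% of all genes, and the exact two-sided permutation test gave p = 0.0571, the smallest possible. The difference between the groups was -0.46, or -0.41 without calf 5841. These are the same values as above, combined by calf. Of the 15 ratios, 4 had groups without overlap in this difference, and all 4 held EIF3G. As they share EIF3G they are not separate results, and the count is not above the 34.5% seen for ratios to the octamer mean. The share among all pairs of genes was not taken for this difference.

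**Figure D5:**
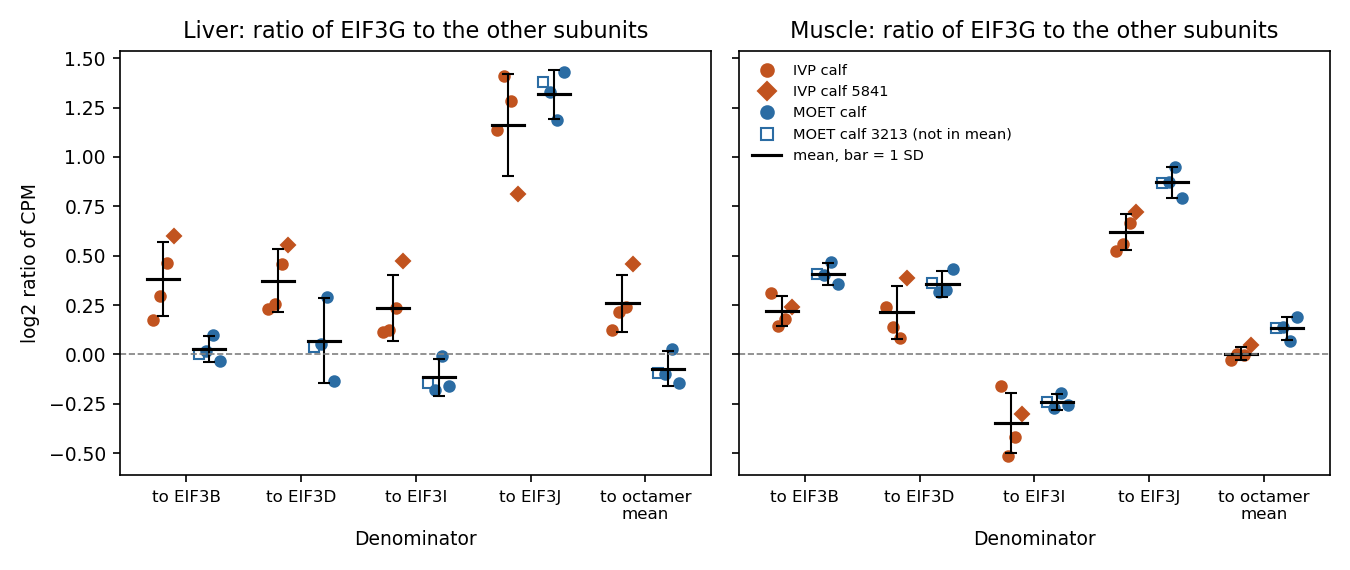
Log2 ratio of EIF3G to each of the other 4 subunits and to the mean of the 7 octamer subunits (vertical axis) for each calf, in liver (left) and muscle (right), with marks as in the plot of CPM per calf. To the octamer mean, IVP calves lie above MOET calves in liver, by 0.33 in the means, and below them in muscle, by a difference of -0.13.

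Between the organs, 5 of the 15 ratios differed in the exact two-sided paired permutation test over 7 calves, each with the same sign in 7 of 7 calves, p = 0.0156 (the smallest possible) and an adjusted p of 0.0469. The same sign in 7 of 7 calves was seen in 72.0% of all pairs of genes and in 68.1% of ratios of a gene to the octamer mean. EIF3I was in 4 of the 5. It was higher in muscle relative to the octamer mean by 0.33 ± 0.11 (SD of the differences, n = 7), and the ratios of EIF3B, EIF3D and EIF3G to EIF3I were lower in muscle, with differences of -0.46 ± 0.06, -0.42 ± 0.18 and -0.39 ± 0.29. For EIF3G to EIF3I the mean difference was -0.58 in the IVP calves and -0.13 in the MOET calves. The ratio of EIF3G to EIF3J was also lower in muscle, with a difference of -0.50 ± 0.26. For these values the calls end when any 1 calf is left out, since 6 calves allow no smaller unadjusted p than 0.03125 in this test.

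The octamer subunits give the setting of these values. In liver 7 of 7 had higher fitted levels in IVP calves and 0 were called. The median log2 difference was 0.38 and the range 0.05 to 0.73. From highest to lowest they were EIF3K (0.73), EIF3M (0.68), EIF3F (0.54), EIF3H (0.38), EIF3E (0.32), EIF3A (0.21) and EIF3L (0.05), against 0.76 for EIF3G. Without calf 5841 the median was 0.31 and 2 of 7 were called. In muscle 1 was higher and 6 were lower, with a median of -0.11 and a range from -0.31 to 0.09, against -0.26 for EIF3G. The origin effect was lower in muscle than in liver past the threshold for 4 of 7, as it was for 12.2% of all genes. These were EIF3K (-1.06), EIF3M (-0.93), EIF3F (-0.91) and EIF3H (-0.54), against -1.10 for EIF3G. The shift of EIF3G against the octamer mean thus does not set it apart from each octamer subunit. With calf as a blocking factor (adjusted p = 0.0558 in edgeR) and without calf 5841 (0.103) EIF3H did not pass, leaving 3 of 7.

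Of a list of 42 other initiation factors 16 could be named, and of 10 elongation factors 3. The names come from the study's own tables, which partly list genes selected on these libraries, so the directions are no independent evidence. In liver 10 of the 16 initiation factors were higher and 6 lower in IVP calves, with a median log2 difference of 0.28, and in muscle 5 were higher and 11 lower. None (0) were called in either organ. Without calf 5841 the liver median was 0.17, and 4 were called as higher and 2 as lower. For the difference of the origin effect between organs 6 passed as lower in muscle and 3 as higher, where 12.2% of all genes passed as lower and 10.9% as higher. With calf as a blocking factor EIF2AK3 (0.66, adjusted p = 0.0488 in edgeR), a kinase that inhibits initiation, also passed as higher. Without calf 5841 EIF1B did not pass (adjusted p = 0.0622 in edgeR) and EIF5B was -0.71. Among the lower were EIF1 (-0.72) and EIF1AX (-1.05), which act in start codon selection beside eIF3, EIF2S2 (-1.71), a subunit of the factor that carries the initiator tRNA, and EIF5B (-1.38), which joins the ribosomal subunits. EIF1B (-0.49), a paralogue of EIF1, and EIF4EBP1 (-1.49), which binds EIF4E and blocks its contact with EIF4G1, were lower too. EIF4G1 (0.60), the scaffold that eIF3 binds on capped mRNA, its relative EIF4G2 (0.65) and EIF2AK2 (1.13), a kinase that inhibits initiation, were higher. EIF2S1 (-0.24) and EIF5 (-0.61) did not pass (adjusted p = 0.252 and 0.0681 in edgeR). Of the 3 elongation factors EEF1D passed, at -1.49 (adjusted p = 0.0101 in edgeR).

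Within organs the 5 subunits varied together. Over 14 libraries, without calf 3213 and centred on each organ's mean, Pearson's r between pairs of subunits was 0.839 to 0.961 (median 0.932). Without the liver library of calf 5841 it was 0.611 to 0.926 (median 0.839), and with each of the groups centred on its own mean 0.728 to 0.949. These libraries share calves and the correlations are given as a description. Among 2239 named genes, those most like each subunit over the 14 libraries were PSMC3 (r = 0.987) and UFD1 (0.985) for EIF3B, STK25 (0.964) and MOB2 (0.962) for EIF3D, EIF3K (0.988) and RPL35 (0.985) for EIF3G, CHMP6 (0.977) and NSFL1C (0.969) for EIF3I, and DNAJC2 (0.984) and LYAR (0.982) for EIF3J. EIF3K, the gene most like EIF3G, is a subunit of the octamer.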

How the data were processed

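RNA-seq libraries were unstranded, selected for polyadenylated RNA and sequenced as paired ends. The authors used SOAPnuke to filter reads, STAR (2.7) to align them to bosTau9, HTSeq-count to count them for Ensembl genes and, in their analysis of expression, sva to control for age. The deposited values are whole numbers derived from read counts per gene and were treated here as estimated counts. Whether they carry that age step is not given in the sources used here and was not tested. In them calf 3213, the calf of 144 days, lay closer to the mean of the other MOET calves than counting noise alone gives. The models with age fitted an age term to these values as they stand. Without strand, reads of genes that overlap on opposite strands cannot be told apart; in the RefSeq table used for names, 0 genes overlapped each subunit. The table holds 0 columns of values from other samples.

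Genes passing filterByExpr (minimum count 10, minimum total 15) were tested with edgeR 4.0.16 (TMM, quasi-likelihood, age as covariate) in R 4.3.3, with Benjamini-Hochberg adjustment over all genes and a threshold of 0.05. The interaction and organ fits used all 16 libraries. The scripts were tested on simulated counts with 200 genes changed by 1 log2 unit. Of these, 53% were recovered in liver, 74% in muscle, 36.5% for the interaction and 83.5% for organ. Of the genes called, 0.93%, 4.5%, 7.6% and 4.6% were false, in the same order. The simulated libraries were independent, without the pairing by calf. DESeq2 1.42.0 was an alternative. Ratios are differences of log2 CPM with a prior count of 2, tested by exact permutation with scipy 1.17.1. Each calf gave 1 library of each organ. In the fits of 1 organ and in the permutation tests, p-values measure the spread between these calves. The main interaction and organ fits took the 16 libraries as independent, without the pairing by calf. The fits with calf as a blocking factor kept that pairing.

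The members and lists were chosen with earlier results of these data known. The text names the 5 subunits in full, the octamer subunits with their liver differences, and the 2 named genes most like each subunit. EIF1, EIF1AX, EIF2S1, EIF2S2, EIF2S3, EIF4B, EIF4G1 and EIF5 are named where an ID could be paired with the name. Any listed factor past the threshold in the main fits of the origin effect, or of its difference between organs, is named too. Factors called only in other fits are not all named. Names for 4181 IDs came from the study's tables. Liver and muscle were paired by calf; the correlation of a calf's 2 libraries in their deviations from the group means was -0.0910 to 0.178 (median 0.0969) over 15237 genes. The within-calf comparison of ratios by origin was added after the data were examined.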

Additional observations from a re-analysis of the deposited data

Results flagged for a closer look

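In 4 of 80 groups of 4 values tested, 1 calf lay apart from the other 3 by Dixon's criterion, and chance gives about 1 in 20. EIF3J stood at 82.8 CPM in the liver of IVP calf 5841, where the other 3 IVP livers had 31.8 to 36.3 CPM. EIF3I stood at 200.3 CPM in the muscle of IVP calf 3209, above 3 IVP calves that lay together, and at 186.0 CPM in the muscle of MOET calf 5932, below the other MOET calves. The latter group includes calf 3213, which is no separate replicate. The log2 ratio of EIF3I to EIF3J was 0.69 in the muscle of IVP calf 3208, below the other 3 IVP calves.

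The origin effect differed between the organs by the interaction test with 1 age term for all 5 subunits. The muscle effect minus the liver effect was -0.51 for EIF3B, -0.61 for EIF3D, -1.10 for EIF3G, -0.60 for EIF3I and -1.07 for EIF3J on the log2 scale. In that fit calf 3213 counts as a replicate, and without it and the age term the number of subunits past the threshold was 1, EIF3G.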

How the results depend on the processing

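The number of subunits called in liver was 0. It was 2 without the age term, 1 in DESeq2 with age and 5 in DESeq2 without age. Without calves 3213 and 5841 and the age term it was 2, where 1177 of 14346 genes were called. When each calf was left out in turn it was 0 to 2 (2 without calf 3213 and 2 without calf 5841), where 1 to 2187 genes were called. In muscle it was 0, and 1 in DESeq2 without age. For the difference between organs it was 5, against 1 without calf 3213 and the age term and 2 with the calf as a block (pairing the organs). With an age term for each organ it was 1, where 1370 of 15237 genes were called. With the block and an age term for each organ it was 0, where 713 of 15237 genes were called. With the block and without calf 3213 it was 1, where 1151 of 15377 genes were called. Without calves 3213 and 5841 and the age term it was 1, where 1547 of 15286 genes were called. When each calf was left out it was 1 to 5, where 1477 to 4306 genes were called. In muscle against liver it was 5 with the block too. Ratios without overlap numbered 3 in liver, or 5 against the median of the octamer subunits and 3 to 8 when a calf was left out, and 3 in muscle, or 3 to 6. With a calf left out, the smaller groups lie apart more readily. The shares among all genes were not taken for these alternatives, so a higher count is no stronger result. Ratios called between organs numbered 5, against 9 with calf 3213 and 0 whichever calf was left out. Over all genes the number called was 1 to 4657 in liver, 6 to 1619 in muscle and 713 to 4566 for the difference between organs over the alternatives, against 5, 60 and 3521. The cause of these changes was not tested, except that fewer calves raise the smallest possible p. EIF3J in muscle, at 0.002, was -0.00899 with RLE scaling, -0.00323 without a filter, -0.00836 without age, -0.0112 without calf 3213 and age, -0.00914 and -0.0185 in DESeq2 with and without age, 0.149 among calves of the same dam and sire, and -0.0679 to 0.0598 when a calf was left out. In muscle minus liver, leaving out a calf turned the sign of EIF3D to EIF3G (range -0.0999 to 0.0574, above 0 without 3217 or 5932), EIF3B to EIF3D (-0.0753 to 0.0131, above 0 without 3218) and EIF3G to octamer (-0.123 to 0.00153, above 0 without 5841). The within-calf EIF3G ratio difference was -0.54 to -0.39 over 11 alternatives. These alternatives and the one with calves 3213 and 5841 left out, or an age term for each organ, were chosen after seeing the data. With 4 against 3 calves the exact tests could not pass 0.05, and parentage could be matched for 2 against 2 calves only.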
